A study of Mus musculus with 7 samples.

Results

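The comparison described here set the gastric corpus of Atp4b-DTR mice at 72 h after the last dose of diphtheria toxin against the same tissue at 48 h. It used 4 of the 7 arrays of the series, taken by their titles: 2 arrays at 72 h, labelled A replicate 1 and B replicate 2, and 2 arrays at 48 h, labelled replicates 1 and 2. No control array entered the contrast. Both groups carried the Atp4b-DTR transgene, were 8 to 12 weeks old, and had received 225 ng of diphtheria toxin per mouse by intraperitoneal injection on each of 3 days. They differed by label only in the time from the last dose to collection. The other 3 arrays of the series, used below only for side-by-side values, were 1 saline-treated Atp4b-DTR control and 1 toxin-treated sample each at 24 h and 36 h. In this model the toxin receptor is driven by the promoter of Atp4b, a gene of the acid-secreting parietal cell. The design text calls the 2 samples of each time independent and does not say how many animals went into each. A p-value here thus reflects the scatter of these arrays alone, which may be technical in part. The meaning of the letters A and B is not given.

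The corpus mucosa is built of glands in which parietal cells secrete acid, chief cells secrete pepsinogen, mucous neck cells sit between them, and pit cells line the surface. Parietal cells pump protons with the H+/K+-ATPase and are packed with mitochondria that supply its ATP. When parietal cells are lost, gland progenitors divide, and cells with mucous neck and chief cell features, called spasmolytic polypeptide-expressing metaplasia or SPEM, can appear at the gland base. New parietal cells later refill the glands.

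Signal was compared for 22180 genes on the log2 scale of the array, where a difference of 1 is a factor of 2. No gene was called at a Benjamini-Hochberg adjusted p under 0.05 by limma (percent called 0; smallest adjusted p 0.705), so no gene below rose or fell by that test. At an unadjusted p under 0.05, limma gave 948 genes higher at 72 h (4.27% of all genes) and 621 lower (2.80%). With 2 arrays a side the exact two-sided permutation test of a single gene cannot go below p = 0.333. The data are therefore described by the gap, the smallest distance between any 72 h array and any 48 h array; genes whose arrays overlapped have no gap. Both 72 h arrays lay above both 48 h arrays in 3706 genes (16.7%) and below both in 2894 genes (13.0%), and these shares are the background for every count of list members below. That split depended on the scaling of the arrays: 3912 against 4591 after a further quantile normalisation, and 5229 against 2623 after subtraction of array medians. The median difference over all genes was 0.004. Between the 2 arrays of the same time, 107 genes differed by at least 1 at 48 h and 71 at 72 h, whereas the gap reached 1 in 8 genes higher and 1 gene lower at 72 h. In bulk tissue, a change in the number of cells of a type and a change in RNA per cell cannot be told apart. Xist and Eif2s3y, expressed from the X in female and the Y in male cells, gave 1 pattern on all 4 arrays: Xist between 2.70 and 3.27, and Eif2s3y between 7.79 and 8.20. The control array (Xist 8.13) and the 24 h array (Xist 9.17) had the opposite pattern, which applies wherever their values stand beside the 48 h and 72 h values.

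The genes most clearly separated upward at 72 h joined a muscle-type gene, digestive enzymes, a pair of goblet-type mucus genes and several enzymes of energy metabolism. Tnni3, which encodes cardiac troponin I, measured 5.86 and 7.53 at 48 h and 8.90 and 9.29 at 72 h, a log2 difference of 2.40 ± 0.68 (SE; n = 2 arrays a group, as throughout) or 5.27-fold. Both 72 h arrays stood above the control array (8.46), and the 48 h arrays themselves were 1.67 apart. Cela1, a pancreatic-type elastase, measured 6.34 and 6.56 at 48 h and 7.80 and 8.14 at 72 h, a difference of 1.52 ± 0.16. The arrays of a time differed by 0.22 at 48 h and 0.34 at 72 h, and the control array (6.61) sat at the 48 h level. Sycn, encoding the zymogen granule protein syncollin, measured 4.42 and 4.51 at 48 h, then 5.46 and 6.83 at 72 h. Only replicate 2 of 72 h had come up to the control level of 6.90.

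Glod5, a glyoxalase-domain gene, read 6.19 and 6.20 at 48 h and 7.32 and 7.84 at 72 h (difference 1.39 ± 0.21), against 8.40 in the control. Cdkl1, a cyclin-dependent kinase-like gene, read 5.11 and 5.30 at 48 h and 6.39 and 6.46 at 72 h, against 6.96 in the control. For both genes the 48 h pair was tight and the 72 h pair lay between it and the control. Adssl1, the muscle-type adenylosuccinate synthase of purine nucleotide metabolism, went from 4.75 and 5.25 at 48 h to 6.29 and 6.92 at 72 h (1.61 ± 0.32). Kyat3, a kynurenine aminotransferase, went from 6.04 and 6.61 to 7.49 and 8.01 (1.42 ± 0.31). Neither gene overlapped between the times, and the control values, 6.65 and 7.29, were closest to those of 72 h. Vstm2b and Lonrf1 were higher by 1.09 ± 0.10 and 1.11 ± 0.17. Ldhb, the lactate dehydrogenase subunit common in oxidative tissue, measured 7.19 and 7.47 at 48 h and 8.31 and 8.62 at 72 h, a 2.19-fold difference, with the control at 8.71. The remaining genes of the top 15, Zg16, Fcgbp, Ckb, Aqp4 and Atp5l, are described with their groups. A further 4 features with gaps in this range were predicted genes or small RNAs.

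**Figure D1:**
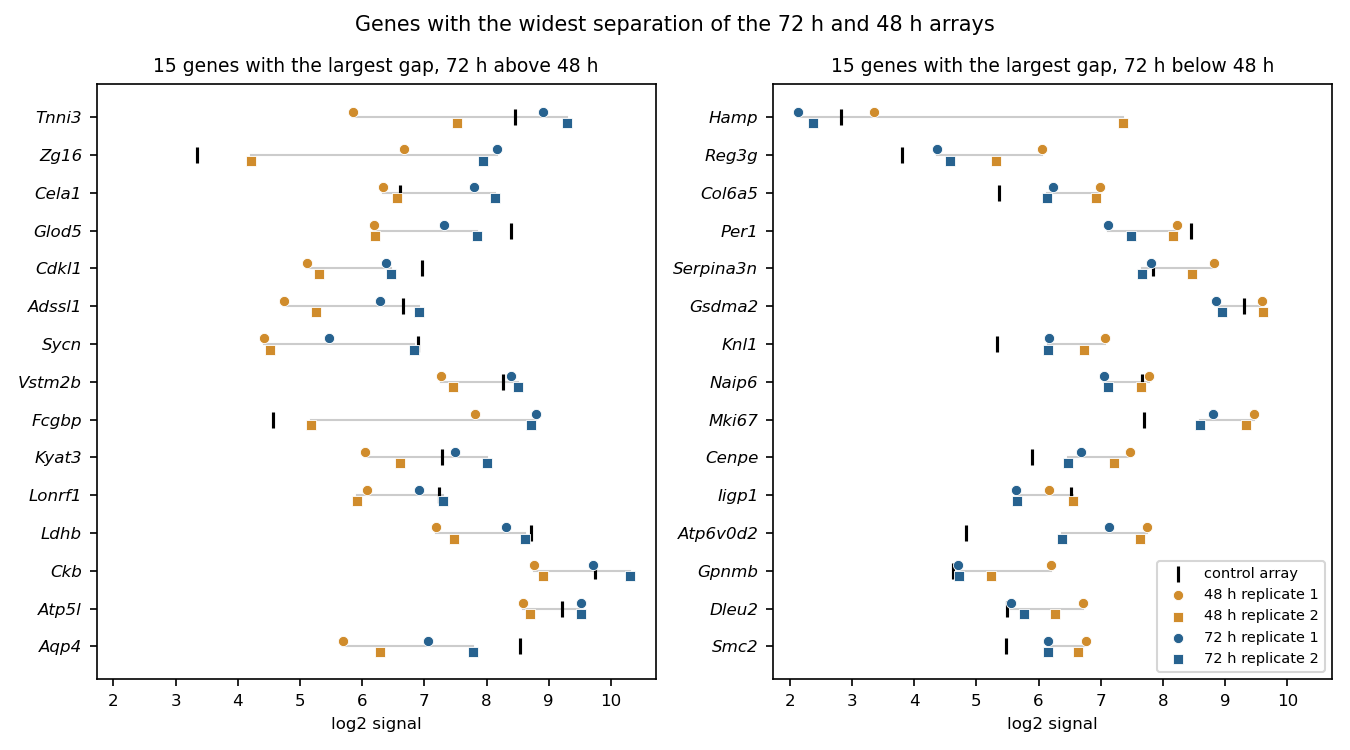
Log2 signal (x axis) of the 15 genes with the largest gap in each direction (y axis) on the 48 h arrays (orange) and the 72 h arrays (blue), replicate 1 as circles and replicate 2 as squares, with the control array as a black bar. Cdkl1 and Col6a5 have tight pairs at both times, whereas the 48 h arrays are far apart for Zg16 (6.67 and 4.21) and Hamp (3.35 and 7.36).

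Parietal cell genes were mostly higher at 72 h. Of 26 measured genes, 14 lay above on both arrays (53.8%, against 16.7% of all genes), 2 below and 10 overlapped; the list's median difference was 0.47 (0.26 without replicate 1 of 48 h and 0.28 without replicate 2 of 72 h), and 5 members were higher at an unadjusted p under 0.05 (limma). The proton pump itself was read by the genes of its 2 subunits. Atp4b measured 11.66 and 12.39 at 48 h and 12.65 and 12.92 at 72 h (0.76 ± 0.31), with the control at 12.94. Atp4a measured 11.53 and 12.36 at 48 h and 12.42 and 12.63 at 72 h (0.58 ± 0.34). For both subunits replicate 1 of 48 h was the low array, and the gap between replicate 2 of 48 h and the nearest 72 h array was only 0.27 for Atp4b and 0.06 for Atp4a. As Atp4b also drives the toxin receptor, its own signal reads the same promoter as the ablation model.

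Wider gaps were found in genes of transport and energy supply. Aqp4, the basolateral water channel, read 5.69 and 6.29 at 48 h and 7.05 and 7.78 at 72 h (1.43 ± 0.38), still below the control at 8.53. Ckb, the brain-type creatine kinase, read 8.76 and 8.91 at 48 h and 9.71 and 10.31 at 72 h (1.18 ± 0.25), with the control at 9.74. Cox7a1, a muscle-type subunit of cytochrome c oxidase, read 5.89 and 5.98, then 6.71 and 7.58, against 8.61 in the control. Slc4a2, the basolateral chloride-bicarbonate exchanger, read 7.66 and 8.24, then 8.77 and 9.33, against 9.58. In these 4 genes replicate 2 of 72 h was the highest array, and of them Ckb alone had a 72 h array above the control. Other members of the list stayed further from the control or differed little between the times. Slc26a7, a basolateral anion exchanger, was higher at 72 h but remained far below the control at 8.66. It was at 4.26 and 4.67 at 48 h and 5.28 and 4.94 at 72 h. Gpr155, an orphan receptor gene, read 5.15 and 5.29 at 48 h and 5.32 and 5.97 at 72 h, against 9.17 in the control. Car2, Sult1c2, Cldn18, Slc9a4 and Esrrg each differed by less than 0.25 and overlapped between the times. The 2 members below on both arrays were Pdk4, a kinase that restrains pyruvate dehydrogenase (difference -0.34), and the potassium channel gene Kcnj15 (-0.22).

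**Figure D2:**
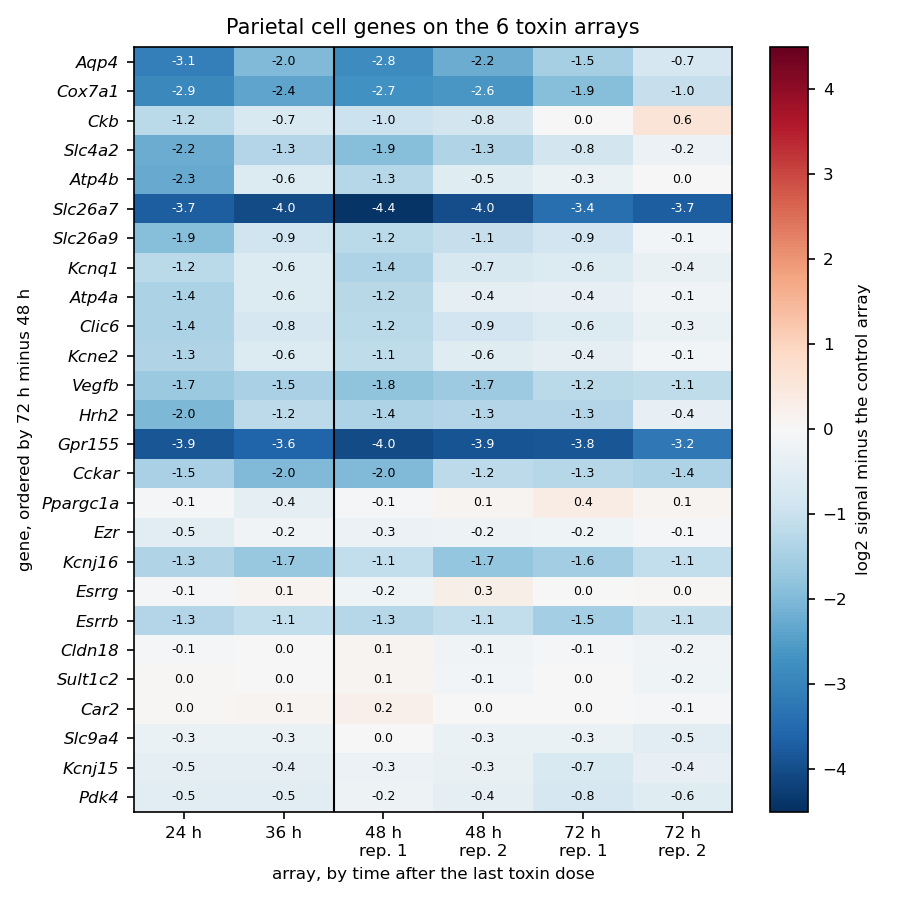
Log2 signal minus the control array for the 26 parietal cell genes (rows, ordered by the 72 h minus 48 h difference) on each toxin array (columns), with the value printed in each cell. The upper rows are paler at 72 h than at 48 h, and Slc26a7 and Gpr155 stay more than 3 below the control on all 6 arrays.

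Genes of mitochondrial respiration were higher at 72 h almost throughout. Of 55 genes of the respiratory complexes, 50 lay above both 48 h arrays (90.9%), none below, and 34 were higher at an unadjusted p under 0.05, with a median difference of 0.45. The size was similar across the chain. All 25 measured genes of complex I, which takes electrons from NADH, were without overlap, with differences from 0.28 (Ndufs3) to 0.75 (Ndufs8). So were 6 of 6 in complex III, 9 of 10 in complex IV and 10 of 13 in the ATP synthase, with medians of 0.49, 0.46 and 0.37. Ndufs8 measured 8.08 and 8.12 at 48 h and 8.78 and 8.94 at 72 h (0.75 ± 0.08). Atp5l, the g subunit of the ATP synthase, measured 8.59 and 8.70 at 48 h, then 9.51 and 9.52 at 72 h (0.87 ± 0.06). The pairs were tight in both genes, and both 72 h arrays were above the control, which read 8.77 and 9.21. Cytochrome c itself (Cycs) overlapped between the times at 0.17 ± 0.10, and Cox7c, with a difference of -0.07, was the sole member of the list with a lower mean at 72 h. Against the control, the list's median was -0.35 and -0.19 for the 48 h arrays, and 0.04 and 0.26 for the 72 h arrays.

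The citric acid cycle, which feeds electrons to the chain, gave 21 of 22 genes above both 48 h arrays (95.5%) and none below, with a median difference of 0.31; 10 had an unadjusted p under 0.05. The iron-sulphur subunit of succinate dehydrogenase, Sdhb, measured 8.12 and 8.23 at 48 h and 8.71 and 8.88 at 72 h (0.62 ± 0.09). Its membrane anchor Sdhc, malate dehydrogenase Mdh2 and succinyl-CoA ligase Suclg1 were higher by 0.52, 0.44 and 0.44, and Suclg2 overlapped. Fatty acid oxidation was less uniform, with 13 of 19 genes above, 1 below and a median of 0.16. Acadvl, which starts the oxidation of very long chains, read 7.26 and 7.71 at 48 h, then 8.06 and 8.32 at 72 h, and Etfa, which passes the electrons on, read 9.13 on both 48 h arrays, then 9.50 and 9.57. Hadhb, at a low signal of 4.05 or less on the 4 arrays, lay below by 0.40. Glycolysis gave 9 of 17 genes above and none below, with a median of 0.21, and its largest difference was that of Ldhb (1.13). The parietal list, whose cells are rich in mitochondria, moved in the same direction on the same arrays; its part in these differences was not tested. Replicate 1 of 48 h was the lowest array and replicate 2 of 72 h the highest for the list medians of parietal, respiratory and citric acid cycle genes alike.

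**Figure D3:**
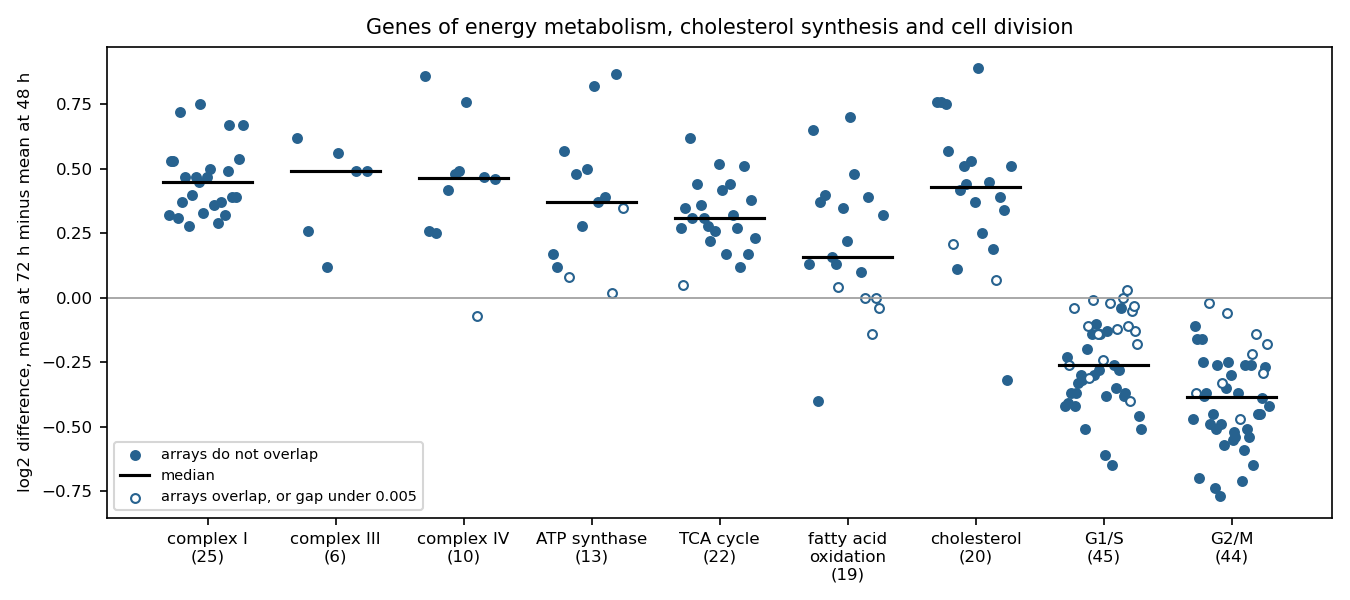
Each point is a gene, placed by its log2 difference at 72 h from 48 h (y axis) within its group (x axis, number of measured genes in brackets); filled points have a gap of at least 0.005 and black lines are medians. Respiratory, citric acid cycle and cholesterol genes lie almost all above 0, and the G1/S and G2/M genes lie almost all below 0.

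Cholesterol synthesis was a further group with nearly all members higher. Of 20 genes, 18 lay above both 48 h arrays (90.0%) and 1 below, the median difference was 0.43, and 11 were higher at an unadjusted p under 0.05. Fdps, which makes farnesyl diphosphate, measured 6.85 and 6.98 at 48 h and 7.73 and 7.88 at 72 h (0.89 ± 0.09), above the control at 7.21. Sqle, the epoxidase that commits squalene to sterols, measured 7.50 and 7.46 at 48 h and 8.19 and 8.28 at 72 h (0.75 ± 0.06), level with the control at 8.20. The pairs were tight in both genes and far from overlapping. Cyp51, the lanosterol demethylase, and Insig1, a sterol sensor that holds the pathway in check, were both higher by 0.76, with standard errors of 0.16 and 0.25. Ggps1, which draws farnesyl diphosphate away from sterols, was the member below (-0.32). The 36 h array did not follow a steady course: Fdps read 7.75 and Sqle 8.45 there, above both 48 h arrays. On the log2 scale the list's median stood 0.71 below the control at 24 h, 0.01 above it at 36 h, 0.46 and 0.53 below it on the 48 h arrays, and differed from it by -0.08 and 0.05 on the 72 h arrays.

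Genes of cell division lay lower at 72 h. Of 44 measured genes of G2/M and mitosis, 36 lay below both 48 h arrays (81.8%, against 13.0% of all genes), none above, with a median difference of -0.39 (-0.24 without replicate 2 of 72 h); 11 had an unadjusted p under 0.05. Of 45 genes of G1/S and DNA replication, 29 lay below (64.4%), none above, with a median of -0.26 (-0.13 without replicate 2 of 72 h, -0.17 without replicate 1 of 48 h) and 9 at an unadjusted p under 0.05. All 44 G2/M genes and 43 of the 45 G1/S genes had a lower mean at 72 h. Mitotic genes commonly carry the cell cycle homology region, TTTGAA, near the start site, an element of their control through the cell cycle. Upstream stretches are shown for the 3 G2/M genes with the widest gaps among those whose window holds the letters, and for Kif11, the spindle motor, to show where those letters lie. They run 5′ to 3′ along the gene from RefSeq (GRCm38.p6), with capitals for TTTGAA, or for TTCAAA where it lies on the other strand.
Mki67, chr7:135716425-135716524, minus strand: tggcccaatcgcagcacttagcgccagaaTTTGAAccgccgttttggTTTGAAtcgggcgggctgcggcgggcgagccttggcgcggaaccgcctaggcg
Smc2, chr4:52439029-52439128, plus strand: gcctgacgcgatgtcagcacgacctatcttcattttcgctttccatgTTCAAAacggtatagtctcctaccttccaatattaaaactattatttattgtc
Ect2, chr3:27153940-27154039, minus strand: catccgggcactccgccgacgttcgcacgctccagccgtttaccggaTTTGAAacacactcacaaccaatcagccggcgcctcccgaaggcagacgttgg
Kif11, chr19:37376282-37376381, plus strand: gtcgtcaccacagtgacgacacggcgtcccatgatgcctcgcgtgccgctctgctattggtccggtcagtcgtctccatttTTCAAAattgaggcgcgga

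Mki67, the proliferation antigen, has the letters at 2 places in its stretch, and measured 9.47 and 9.33 at 48 h and 8.81 and 8.60 at 72 h (-0.70 ± 0.11). Cenpe, a kinetochore motor whose window lacks the letters, measured 7.47 and 7.22 at 48 h and 6.69 and 6.47 at 72 h (-0.77 ± 0.14). Knl1, a kinetochore scaffold, measured 7.07 and 6.73, then 6.17 and 6.16. None of these 3 genes overlapped between the times. Their levels at 72 h were still above the control array, which read 7.69 for Mki67, 5.90 for Cenpe and 5.34 for Knl1. Smc2, a condensin subunit, and Ect2, which directs cytokinesis, were lower by 0.55 and 0.71 on the log2 scale, and Kif11 by 0.65. In G1/S, Brip1, a helicase of replication repair, differed by -0.38 ± 0.05. The repair partner Rad51ap1 differed by -0.51 ± 0.07, the repressor E2f8 by -0.46 ± 0.07, and the primase gene Prim1 by -0.65 ± 0.23. On all 4 arrays the medians of both lists stayed above the control: by 0.95 and 0.71 at 48 h against 0.56 and 0.33 at 72 h for G2/M, and by 0.67 and 0.54 against 0.38 and 0.31 for G1/S.

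In promoter windows from 250 bases before to 50 after the start, TTTGAA on either strand was present in 29 of 37 G2/M genes with a window (78.4%), against 20.2% of all 27025 windows. Within the list, 24 of the 29 genes with the letters lay below both 48 h arrays, as did 7 of the 8 without them, and the median differences were -0.37 and -0.46. Only 8 genes lacked the letters, and a part of the letters in the difference was not tested.

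**Figure D4:**
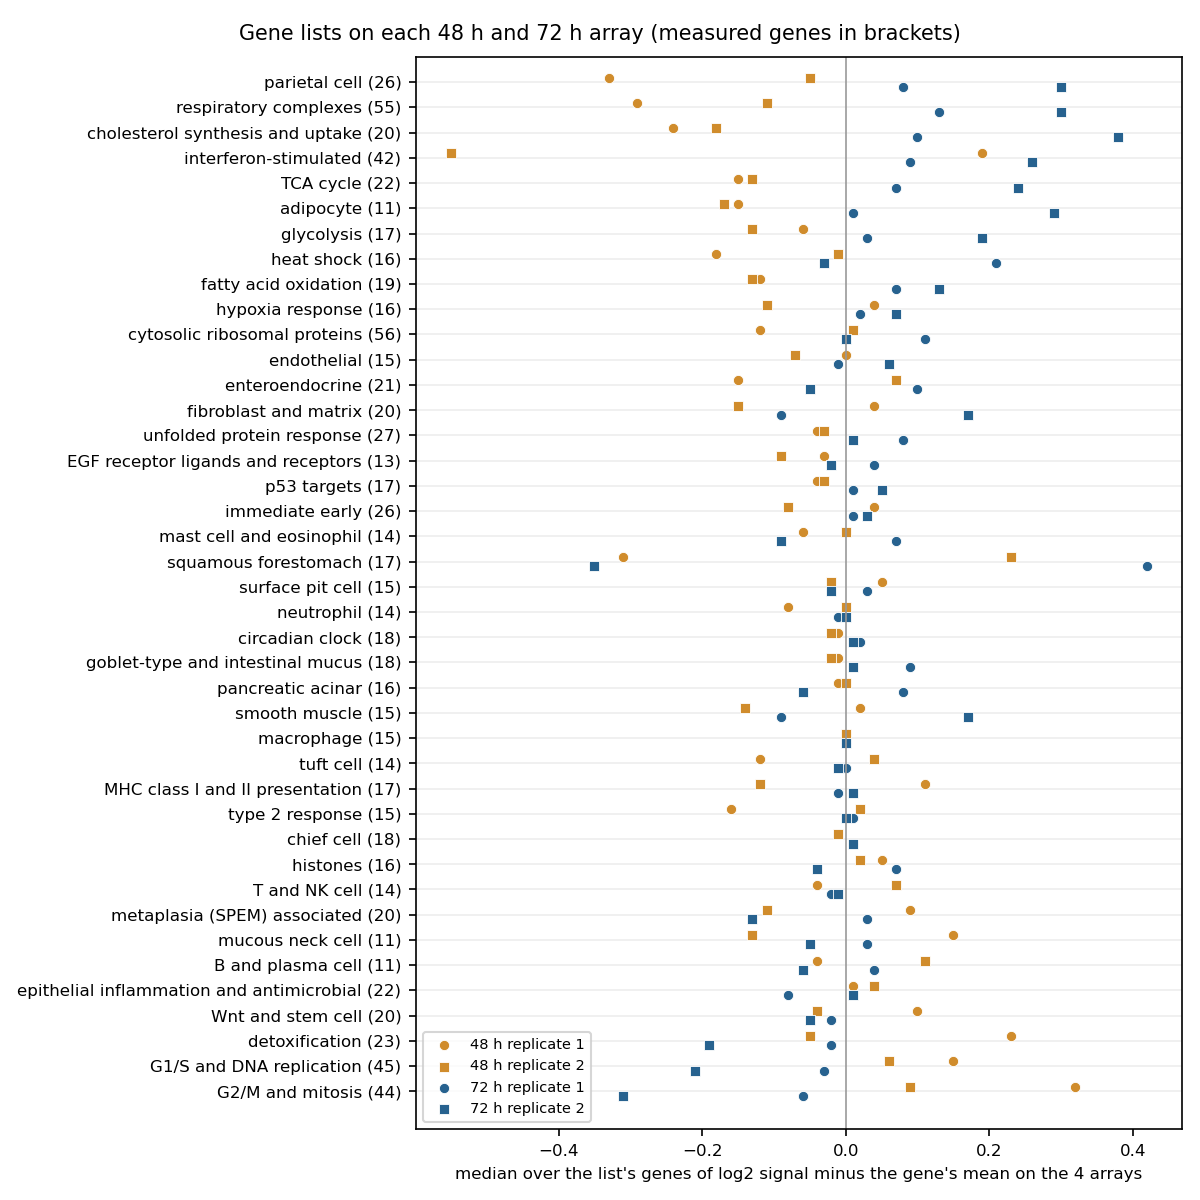
For each gene list (rows, with the number of measured genes), the median over its genes of log2 signal minus the gene's mean on the 4 arrays, for each 48 h array (orange) and 72 h array (blue). Parietal, respiratory, cholesterol and citric acid cycle lists have both blue points to the right of both orange points, cell division lists to the left, and the interferon and squamous lists are spread by single arrays.

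Among the genes most clearly separated downward, Hamp had the largest difference and the least even pairs. It encodes hepcidin, the hormone that limits iron release, and measured 3.35 and 7.36 at 48 h and 2.14 and 2.38 at 72 h, with the control at 2.82. Its mean difference of -3.10 ± 1.60 rests on replicate 2 of 48 h. Per1, a repressor of the circadian clock, read 8.22 and 8.16 at 48 h and 7.12 and 7.48 at 72 h (-0.89 ± 0.15), with the control at 8.45; the 48 h arrays differed by 0.06 and the 72 h arrays by 0.36. Of the 18 clock genes, 7 were above on both arrays, 3 below and 8 overlapped, and the median was 0.02. Dbp (0.33), Nfil3 (0.34) and Nr1d1 (0.27) were higher, while the core activator Arntl overlapped at -0.08. The hour of collection is not in the labels. CACGTG, the E-box that the clock activators bind, was in the windows of 5 of 17 clock genes, against 8.09% of all windows, and is shown in capitals for Per1, the clock gene with the widest gap.
Per1, chr11:69098736-69098835, plus strand: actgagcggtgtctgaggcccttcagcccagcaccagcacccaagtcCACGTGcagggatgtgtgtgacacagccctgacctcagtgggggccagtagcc

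Reg3g, an antimicrobial lectin, measured 6.06 and 5.31 at 48 h and 4.37 and 4.57 at 72 h (-1.22 ± 0.31), against 3.81 in the control. Serpina3n, an inhibitor of serine proteases, measured 8.82 and 8.46 at 48 h, then 7.81 and 7.66 at 72 h (-0.90 ± 0.16), the latter at the control level of 7.84. The 48 h arrays stood above the control in both genes. Col6a5, a collagen VI chain, measured 6.99 and 6.92, then 6.24 and 6.14 (-0.77 ± 0.06), with the control at 5.36. Gsdma2, a gasdermin, measured 9.59 and 9.61, then 8.86 and 8.95 (-0.69 ± 0.05), so that its 72 h arrays lay below the control at 9.30. Naip6, an innate sensor, and Iigp1, an interferon-induced GTPase, likewise lay below the control at 72 h, with differences of -0.62 and -0.72 from 48 h. Atp6v0d2, a proton pump subunit of lysosomes, Gpnmb, a glycoprotein of phagocytes, and the noncoding gene Dleu2 were lower by 0.93, 1.00 and 0.82 on the log2 scale. A further 10 features with gaps in this range were predicted genes, small RNAs or pseudogenes.

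The mucous, pit and chief cell lists had medians near that of all genes. Among 18 chief cell genes, 6 were above, 3 below and 9 overlapped, with a median of -0.01. Pgc, a pepsinogen, was near the top of the measured range, at 13.32, 13.36, 13.35 and 13.31 on the 4 arrays. The pepsinogen Pga5 varied more within each time than between them, at 7.09 and 4.84 at 48 h and 4.92 and 6.04 at 72 h, against 8.23 in the control. The chief cell transcription factor Bhlha15 overlapped, and the stem and chief cell marker Lgr5 was lower by 0.42 on the log2 scale, a difference that a second probe set did not show (0.00). Dgat2, a triglyceride-synthesis enzyme, and Tff2, a trefoil peptide shared by neck, SPEM and some chief cells, were higher. Tff2 measured 11.61 and 11.67 at 48 h and 12.38 and 12.13 at 72 h (0.62 ± 0.11), above the control at 11.47.

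The other mucous neck anchors did not follow Tff2. Muc6, the neck cell mucin, read 10.95 and 10.50 at 48 h, then 10.50 and 9.97 at 72 h (-0.49 ± 0.28), and A4gnt, which caps that mucin with N-acetylglucosamine, overlapped. Of 11 neck genes 1 was above and 2 below, the latter with a gap of -0.01 for Spdef and a smaller one for Muc6. Of 20 SPEM-associated genes, 4 were above and 4 below, a share of 20.0% each way, with a median of -0.04. Clu (clusterin), Sox9, a progenitor transcription factor, and Dmbt1, a mucosal defence glycoprotein, were lower by 0.25, 0.51 and 0.51 on the log2 scale. Krt7, a keratin of simple epithelium, and Olfm4 were higher by 0.68 and 0.48. Cd44 overlapped, and Wfdc2 was higher by 0.44. At both times the SPEM list stood above the control, by medians of 0.75 and 0.42 at 48 h, then 0.82 and 0.55 at 72 h. The 15 pit cell genes, among them Gkn1, Gkn2 and Muc5ac with signals of 12.11 or more on the 4 arrays, gave 2 above, 2 below and a median of 0.03, and Capn8, a calpain of pit cells, was lower by 0.40.

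Zg16 and Fcgbp, products of intestinal goblet cells, differed from these lists in size. Zg16 measured 6.67 and 4.21 at 48 h, then 8.17 and 7.94 at 72 h (2.62 ± 0.99), and Fcgbp measured 7.81 and 5.18, then 8.79 and 8.72 (2.26 ± 1.05). The 72 h pairs were tight and the 48 h pairs wide, and the 36 h array, at 8.27 and 9.50, was as high as those at 72 h. The control read 3.34 and 4.57. The goblet cell mucin Muc2 and the intestinal transcription factor Cdx2 were near 5 or below on all 4 arrays, and the list as a whole gave 3 of 18 above and 1 below, with a median of 0.02.

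**Figure D5:**
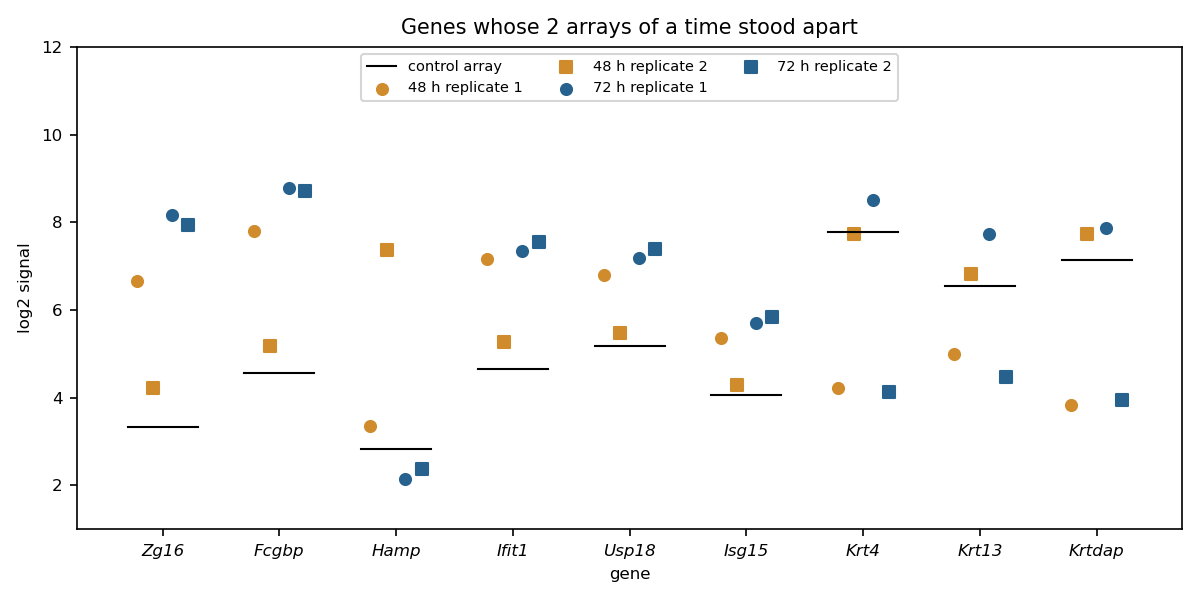
Log2 signal (y axis) of 9 genes (x axis) on the 48 h arrays (orange) and 72 h arrays (blue), replicate 1 as circles, replicate 2 as squares, and the control array as a black line. Replicate 2 of 48 h is low for Zg16, Fcgbp and the interferon genes Ifit1, Usp18 and Isg15 and high for Hamp, and for Krt4, Krt13 and Krtdap replicate 2 of 48 h and replicate 1 of 72 h are high.

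Interferon-stimulated genes, the antiviral effectors induced by interferon signalling, rested on 1 array. Of 42 genes, 11 lay above both 48 h arrays (26.2%), 2 below and 29 overlapped, with a median difference of 0.35. The list medians, each gene centred on its mean over the 4 arrays, were 0.19 and -0.55 at 48 h and 0.09 and 0.26 at 72 h, so that replicate 2 of 48 h stood apart. Usp18, which restrains the interferon receptor, read 6.79 and 5.48 at 48 h and 7.18 and 7.40 at 72 h (1.16 ± 0.53). Isg15, a ubiquitin-like modifier, read 5.37 and 4.28, then 5.71 and 5.85 (0.96 ± 0.44), and Ifit1, which binds viral RNA, read 7.16 and 5.26, then 7.34 and 7.55. In all 3 genes replicate 2 of 48 h lay at most 0.60 above the control, and the other 3 arrays lay further above it. Without that array the median difference was -0.03, and without replicate 1 of 48 h it was 0.73. Iigp1 (-0.72) was opposite in sign to the list.

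The interferon-stimulated response element (ISRE), taken as a pair of GAAA blocks 2 bases apart on either strand, was in the window of 17 of 31 genes of the list with a window (54.8%), against 3.99% of all windows. Of the genes with the element 3 lay above and none below, and of the 14 without it 3 lay above and 1 below. The stretches of Isg15 and Oas3 are shown as a pair that holds repeated and single copies, with capitals for the element.
Isg15, chr4:156200830-156200929, minus strand: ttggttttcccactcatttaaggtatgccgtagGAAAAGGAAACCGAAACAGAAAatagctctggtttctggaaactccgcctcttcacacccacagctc
Oas3, chr5:120777680-120777779, minus strand: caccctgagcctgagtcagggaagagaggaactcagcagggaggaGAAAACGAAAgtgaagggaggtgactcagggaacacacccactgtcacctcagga

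Markers of the squamous forestomach, a tissue next to the corpus, varied between arrays rather than between times. None of the 17 squamous forestomach genes was free of overlap. Krt4, a keratin of stratified epithelium, measured 4.21 and 7.74 at 48 h, then 8.51 and 4.12 at 72 h, and Krtdap, a product of keratinocyte differentiation, measured 3.83 and 7.74, then 7.88 and 3.95. Replicate 2 of 48 h and replicate 1 of 72 h were thus high in squamous RNA, near the control values of 7.79 and 7.14, and the other pair was low. With 1 high and 1 low array at each time, the part of this RNA in other differences was not tested. The mean signal of the list was 4.19 and 5.54 at 48 h and 5.74 and 4.13 at 72 h. Among 16 pancreatic acinar genes, 3 were above (Zg16, Cela1 and Sycn) and 2 below. Of the trypsinogens, which define acinar cells, Prss1 and Prss2 stayed between 3.92 and 4.49, whereas Try4 had a higher signal. The 48 h pair of Try4 (7.31, 7.53) overlapped with its 72 h pair (8.04, 7.42), and all of these values were below the control (8.81).

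Hormone genes gave 5 of 21 above and 1 below, with a median of 0.09. Gast, the gastrin gene of the antrum, measured 7.32 and 6.68 at 48 h, then 8.32 and 7.61 at 72 h (0.96 ± 0.38), and the control read 5.83. Tph1, which makes serotonin, was higher by 0.80 ± 0.36, and the islet transcription factor Isl1 lower by 0.39. Ghrl (ghrelin) and Sst (somatostatin) overlapped. Of 11 adipocyte genes, 7 were above and 1 below, with a median of 0.30. The largest difference was in Car3, a carbonic anhydrase abundant in fat and muscle, at 4.88 and 6.33 at 48 h, then 6.99 and 7.77 at 72 h. The defining adipocyte genes were less clear: Adipoq (adiponectin) stayed between 3.05 and 3.59, Plin1 overlapped, and Fabp4 was lower by 0.21 on the log2 scale.

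Of 15 endothelial genes, 5 were above and none below, with a median of 0.11, although the anchors Pecam1, Cdh5 and Kdr overlapped. The smooth muscle list had 3 of 15 members above and none below, and the fibroblast and matrix list 3 of 20 above and 1 below. In smooth muscle those above were Tagln, Des and Cnn1, with Acta2 and Myh11 overlapping. In the matrix list the member below was Dcn, the proteoglycan decorin (-0.29 ± 0.17), and Col4a1, a basement membrane collagen, was at 6.36 and 6.42 at 48 h and 6.77 and 6.93 at 72 h (0.46 ± 0.08). Immune lists showed few members without overlap: macrophage 2 above and 2 below of 15, neutrophil 3 above of 14, T and NK cell 3 below of 14, B and plasma cell 1 above of 11, and mast cell and eosinophil 2 above of 14. Cd68, a lysosomal marker of macrophages, read 7.73 and 6.59 at 48 h and 6.17 and 6.56 at 72 h, so that replicate 1 of 48 h alone was high. The tuft cell list gave 1 above and 1 below of 14.

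Among stress and signalling lists, the unfolded protein response gave 11 of 27 genes above (40.7%) and 1 below, with a small median of 0.08. Creld2, a chaperone of the endoplasmic reticulum, measured 8.22 and 8.75 at 48 h, then 9.34 and 9.17 at 72 h (0.77 ± 0.23), and the folding factor Hyou1 was higher by 0.44 ± 0.12. The transcription factor Xbp1 read 9.24 on both 48 h arrays, then 9.43 and 9.41. Heat shock genes gave 4 of 16 above and none below, and p53 targets gave 7 of 17 above and 1 below, led by the exonuclease gene Aen (0.40). Detoxification genes leaned the other way, with 7 of 23 below (30.4%), 1 above and a median of -0.13. Gsta3, a glutathione transferase, measured 8.05 and 7.38 at 48 h, then 7.10 and 6.89 at 72 h, and Gclc, the rate-limiting enzyme of glutathione synthesis, 9.58 and 9.15, then 8.94 and 8.83. In both genes replicate 1 of 48 h was the highest array, and all 4 arrays were above the control (5.72 and 8.49).

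Of 20 Wnt and stem cell genes, 8 were below (40.0%) and 2 above, with a median of -0.12, Sox9 and Lgr5 among those below. Immediate early genes gave 3 of 26 above and 1 below. That member below was Myc, a driver of growth, at 7.79 and 7.91 at 48 h and 7.61 and 7.47 at 72 h. Epithelial inflammation and antimicrobial genes gave 6 of 22 below and 3 above; besides Reg3g, the oxidase Duox2 was lower by 0.24 on the log2 scale. Among 13 genes of EGF receptor signalling, 4 were above and none below, and Ereg, the ligand epiregulin, was higher by 0.50 ± 0.09, although a second probe set gave 0.06. Hypoxia response genes gave 5 of 16 above and 1 below, including Car9 (0.69), whose second probe set gave 0.08. The 56 cytosolic ribosomal protein genes gave 18 above and 2 below with a median of 0.11, the 16 histone genes 1 each way, the 17 antigen presentation genes 1 each way, and the 15 type 2 response genes 2 above and none below.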

How the data were processed

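Corpus RNA was measured on single-channel arrays, 1 per sample, after biotin labelling with the Affymetrix WT Plus kit, per the labels' protocols. The deposited values are log2 signal for 41345 probe sets, which the submitters' processing notes say the authors made with RMA in Partek; the sources used here give neither versions nor the array's genome build. RMA gives equal values to some probe sets on several arrays (2485 genes at 48 h, 2367 at 72 h), and array signal has no read depth, so the number of arrays limits the precision.

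Probe sets with 1 gene in the platform annotation (23521) were kept, and those with several (1814) or none (16010) were left out; of several probe sets of a gene (1082 genes) the one with the highest mean was used. Symbols were checked through RefSeq (GRCm38.p6), where 23328 probe sets matched. The main test was limma 3.58.1 (R 4.3.3; a linear model of 2 arrays against 2 with eBayes, two-sided, 2 residual and 1.15 prior degrees of freedom), adjusted over all genes by Benjamini-Hochberg, and the script was tested on simulated data. Equal replicate numbers at both times were not taken as pairs.

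The comparison, the 42 gene lists and the rule for naming genes were chosen with earlier results of these data known. Named genes are first the 15 with the largest gap in each direction among genes whose higher group mean reached the median signal of 5.16. Predicted genes, small RNAs, pseudogenes and receptor families were passed over there. The first 3 measured genes of each cell type list were also named. So were up to 4 members of each list by gap in the direction of its median. Where the list median lay close to that of all genes, gaps in either direction counted. Other genes (Hadhb, Suclg2, Cycs, Cox7c, Ndufs3, Ggps1, Pdk4, Kcnj15, Gpr155, Car2, Sult1c2, Cldn18, Slc9a4, Esrrg, Kif11, Arntl, Ifit1, Oas3, Krtdap, and Mir467e and those beside it in the closing section) were chosen after their values were seen. Of the listed symbols, 28 were matched by a synonym. Promoter windows ran from 250 bases before to 50 after the start.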

Additional observations from a re-analysis of the deposited data

Results flagged for a closer look

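The probe sets without a gene name stood outside the comparison of genes and are described here. Of 16010 such probe sets, both 72 h arrays lay below both 48 h arrays in 3468 (21.7%) and above in 2136 (13.3%). These counts used the deposited values only. Among genes, the share below was 13.0% on those values. It was 20.7% after a further quantile normalisation and 11.8% after subtraction of array medians. The gap reached 1 downward in 53 of the probe sets without a gene, against 1 gene, and upward in 8. In 48 of the 53, both 48 h arrays were above the control array. As the 53 were picked for 48 h values above those of 72 h, this count and the medians below describe the picked probe sets only. Over the 53 the median log2 signal was 4.08 in the control array and higher at 24 h (4.58), 36 h (5.15) and 48 h (5.09 and 4.93). It was below the control on the 72 h arrays (3.55 and 3.42). Most of them, 47, belong to the 5333 probe sets numbered before the first probe set with a gene, where 34.4% were lower and 8.12% higher without overlap and the median difference was -0.21. In the other 10677 probe sets without a gene the shares were 15.3% and 16.0% and the median difference was 0.00. What these probe sets measure is not given in the sources used here, and the cause of the difference was not tested. Groups of 2 arrays are too small for a test of outlying samples.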

How the results depend on the processing

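No gene was called under any setting tried: the replicate number as a block, a further quantile normalisation, array medians subtracted, dim genes left out, genes with 4 distinct values only, the mean of probe sets, the probe set chosen on 4 arrays, eBayes with trend and robust options, all 7 arrays in the fit, and each array left out in turn. The smallest adjusted p over these settings ran from 0.202 to 0.80 (limma). The count at an unadjusted p under 0.05, 1569 in the main analysis, was 1341 with the replicate block and 1041 of 11068 genes with dim genes left out, and ran from 2199 to 3253 without 1 array, where a lone array is assumed to vary like the other pair. The same-numbered arrays were not paired by the data (correlation of within-time differences -0.13 across genes, which are not independent); a crossed block, added after this was seen, gave 1396. The count of genes with a gap of at least 1, 9 in the main analysis, ran from 25 to 56 without 1 array, since a lone array has no spread of its own.

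Directions of the lists described as higher or lower held under both scalings and without each array in turn for parietal, respiratory, citric acid cycle, cholesterol, G2/M and G1/S genes. Without 1 array, the cholesterol median ran from 0.29 to 0.59 and the G1/S median from -0.32 to -0.13. The inflammation and antimicrobial median was -0.37 with dim genes left out, against -0.07. Of the genes given with a difference, Arntl (-0.24 to 0.08), Cldn18 (-0.25 to 0.02) and Esrrg (-0.26 to 0.23) changed sign without 1 array, all of them genes whose arrays overlapped; the other genes given with a difference kept their sign, and none was called.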

Other observations

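Genes of the mitochondrial ribosome, the proteasome and small RNAs were also examined, in groups assembled after earlier results were seen. Of 71 mitochondrial ribosomal protein genes, 43 lay above both 48 h arrays at 72 h (60.6%, against 16.7% of all genes), 4 lay below, and the median difference was 0.18. Mrps16 measured 6.04 and 6.17 at 48 h and 6.69 and 6.79 at 72 h (0.64 ± 0.07), with the control at 5.71. Mrpl20 measured 5.76 and 6.18, then 6.57 and 6.91. Both genes had their highest array at 72 h replicate 2. The 38 proteasome subunit genes gave 15 above and 5 below, with a median of 0.08.

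Of 80 small nucleolar RNA genes, which guide the modification of ribosomal RNA, 29 lay above (36.2%) and 6 below, with a median of 0.14. Snord13 measured 8.99 and 9.26 at 48 h and 10.46 and 10.31 at 72 h (1.26 ± 0.13), with the control at 9.45. Of 478 microRNA genes, 53 lay above (11.1%, against 16.7% of all genes) and 98 below (20.5%, against 13.0%), with a median of -0.02. These counts used the deposited values only, and after a further quantile normalisation 20.7% of all genes lay below. The mean microRNA signal was between 3.78 and 3.86 on the 4 arrays, under the median gene signal of 5.16. Mir467e, named after its value was seen, was the single gene below by a gap of at least 1: it measured 8.97 and 9.28 at 48 h and 7.37 and 7.38 at 72 h (-1.76 ± 0.13), against 6.74 in the control, 8.09 at 24 h and 8.76 at 36 h. Its probe set matches the precursor gene, so the mature microRNA was not measured apart. Among the 11068 genes at or above the median signal, 2419 were higher without overlap (21.9%) and 1619 lower (14.6%). Of the 11112 genes below it, 1287 were higher and 1275 lower.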
